A study of Mus musculus with 32 samples.

Results

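The comparison between collection days in sham-operated muscle, 28 days against 7 days after surgery, rests on 8 of the 32 RNA-seq libraries of this series. They were taken by their labels: 4 gastrocnemius samples of sham mice collected at 28 days and 4 collected at 7 days, all given vehicle. The study set out to follow the gastrocnemius, a calf muscle, after complete spinal cord injury (SCI) with boldine or vehicle treatment in young male mice. Boldine is a plant alkaloid known to block connexin hemichannels. Its other 24 libraries, 6 each of SCI boldine and SCI vehicle at 28 days and 6 each at 7 days, serve here as a setting for the sham values. No gene deletion or transgene is named for any group, and the labels give neither strain, age in weeks, housing nor a batch. Each library was made from RNA of about 20 mg of muscle that joined the medial and lateral heads in equal amounts. No label says that the pieces came from different animals, so the spread behind each p-value may be technical.

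Without spinal injury, a sham operation leaves the nerve and the muscle in place, and such muscle serves as the reference for injured muscle collected on the same day. Between collections the mouse goes on growing and recovers from anaesthesia and surgery. The gastrocnemius of the mouse is mostly made of fast fibres, with slow fibres gathered in its deep part, and myosin isoforms encoded by different genes mark the fibre types. Fibres lie in a dense net of capillaries, whose endothelial cells are wrapped by pericytes and, in larger vessels, by smooth muscle cells, on a shared basement membrane of type IV collagen, laminin and perlecan.

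The 28-day sham libraries held 10655924 to 12405094 counts and the 7-day sham libraries 9980885 to 12864837. Levels are given in CPM, counts per 1e6 of a library total scaled by edgeR's TMM factors, and differences as log2 of 28-day over 7-day sham. All 9 genes of a list that defines skeletal muscle (Acta1, Ckm, Mb, Actn2, Myot, Tcap, Ckmt2, Des and Mybpc1) were measured. Their summed level was 68202, 68587, 65176 and 64891 CPM in 28-day sham, against 58751, 64979.5, 70625 and 59978 CPM in 7-day sham, ranges that overlap, so both collections read as muscle.

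Before the results, a division among the libraries and 1 library that stands apart need to be given. The long transcript A630019I02Rik had 2.83, 2.02, 3.41 and 4.64 CPM in the 4 libraries of 28-day sham, against 530.1, 344, 15.3 and 161 CPM in the 4 of 7-day sham. Across the series it stayed below 10 CPM in 8 libraries, namely those of 28-day sham and 4 of the 28-day SCI vehicle group (numbers 1 to 4), where it reached 4.64 CPM at most, and its lowest level in the other 24 was 15.3 CPM. Hipk2, a nuclear kinase, parted the same libraries, with 21.8 CPM at most in the 8 and 47.0 CPM at least in the 24. What these 8 libraries have in common is not stated in any label, though they follow one another in the order of the deposited samples. Among sham libraries this division and the collection day are the same, so their parts in any difference cannot be told apart. The 28-day SCI vehicle libraries stand on both sides, 4 against 2, and their difference is printed beside results below as the set difference, libraries 1 to 4 minus libraries 5 and 6, with no test.

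The library that stands apart is 7-day sham library 2. The first principal component of the 8 sham libraries carried 26.5% of their variance and set this library at a score of 52.1, against scores of -21.6 to 10.7 for the other 7. Summed over 9 Schwann cell markers, the cells that wrap peripheral axons, it had 454 CPM. The other 3 libraries of 7-day sham had 56.5 to 124 CPM, and the 4 of 28-day sham had 88.0 to 147 CPM. Slow-fibre transcripts were low in the same library. Without this library, 27 of the 46 called genes named below lost the call. The 19 that kept it were Trp53i11, Fscn1, Hipk2, A630019I02Rik, Acvr2b, Pdpr, AC113003.1, Usp9x, Dennd4c, Ankhd1, Fam120c, Ogt, Ubr1, Huwe1, Dmd, Filip1, Acaca, C4b and Hmgb1-ps8.

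Of 14955 genes that passed the filter on low counts, edgeR's quasi-likelihood test called 58 higher and 225 lower at 28 days (Benjamini-Hochberg adjusted p under 0.05), or 0.388% and 1.5% of the genes tested and 1.89% together. Most changes were small. The 58 had a median log2 difference of 0.64 and 5 of them passed 2-fold, and the 225 had a median of -0.52, 40 of them beyond 2-fold and 143 under 1.5-fold. The median of all genes was 0.02. The counts of calls moved with single libraries, and fell to 82 without 28-day library 1, 80 without 28-day library 2, 136 without 28-day library 3 and 186 without 28-day library 4. They fell to 123 without 7-day library 1, 92 without 7-day library 2 and 174 without 7-day library 4. With a term for the library set in the model, 0 genes were called by edgeR, and no other tool was run with that term. An unadjusted p under 0.05 was found for 635 of the 14955 genes with the term, against 2132 (14.3%) without it.

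Scaling by library totals in place of TMM gave 20 higher and 115 lower genes, 130 of them among the 283. Of the 46 called genes named in the text, 28 remained called with library totals, and the other 18 were Acta2, Cspg4, Aplnr, Dll4, Notch3, Hes1, Vegfa, Hspg2, Cox6c, Cox7b, Esrra, Acsl1, Rap1gap, Tbx2, Ddit3, Fbxo21, Musk and Acaca. All 46 kept their sign in each of the 8 fits that left out 1 sham library, and 12 of them stayed called in each.

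Among the rises were markers of the vessel wall. Of 8 smooth muscle and pericyte genes all 8 had a positive log2 difference, with a median of 0.75 against 0.02 over all genes. Acta2, Cspg4 and Pdgfrb passed the test, 3 of 8 where 0.388% of all genes were called higher, and 7 of 8 had an unadjusted p under 0.05, against 14.3% of all genes. Summed over the list, the level was 486, 534, 534 and 487 CPM in 28-day sham, against 408, 326, 316 and 383 CPM in 7-day sham. Every 28-day library lay above every 7-day library. In bulk samples, fewer cells of a type and less RNA per cell cannot be told apart, in this list or any below. The set difference within 28-day SCI vehicle had a median of 0.57 over the same 8 genes, and with the set term the list's median was 0.23 with 0 calls by edgeR. Leaving out 1 library gave 1 or 2 calls in the list, and 0 without 7-day library 2, where the median was 0.70.

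Acta2, the smooth muscle alpha-actin, had 27.8, 57.6, 37.0 and 33.1 CPM in the 4 libraries of 28-day sham, against 16.3, 15.9, 22.5 and 23.8 CPM in the 4 of 7-day sham. The groups did not overlap, and 28-day library 2 was the highest. Its log2 difference was 0.98 ± 0.26 (SE, adjusted p = 0.0413). It lies in mm10 on chromosome 19 from 34241090 to 34255590, minus strand. Its promoter window from RefSeq on GRCm38.p6, chr19:34255324-34255623 on the minus strand, is shown because Acta2 had the largest difference of the pericyte and smooth muscle genes that passed. It runs from 250 bases before the start used for the window to 50 after it, and that start lies inside the mm10 span given above, not at its end. Capitals mark TATATAA, which begins at base 259 of the window and so after that start. Of 32851 such windows 3.24% hold this motif on either strand.
Acta2: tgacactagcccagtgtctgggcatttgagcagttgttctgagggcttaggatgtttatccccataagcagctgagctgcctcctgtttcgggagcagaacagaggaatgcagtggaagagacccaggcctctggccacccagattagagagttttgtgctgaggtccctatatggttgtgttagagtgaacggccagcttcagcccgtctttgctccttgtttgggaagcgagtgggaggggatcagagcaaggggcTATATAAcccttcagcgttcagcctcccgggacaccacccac
Cspg4, the NG2 proteoglycan of pericytes, had 17.8, 15.7, 21.1 and 13.0 CPM in 28-day sham, against 10.5, 7.88, 7.80 and 12.2 CPM in 7-day sham. Its log2 difference was 0.82 ± 0.22 (SE, adjusted p = 0.0433), and the lowest 28-day library stood just above the highest 7-day library. Pdgfrb, the receptor through which pericytes answer endothelial PDGF-B, had 49.5, 37.4, 38.9 and 40.9 CPM in 28-day sham, against 30.3, 25.8, 22.7 and 25.6 CPM in 7-day sham. All 4 of 28-day sham stood above all 4 of 7-day sham, with a log2 difference of 0.68 ± 0.15 (SE, adjusted p = 0.0171). Cspg4 passed in 2 of the 8 fits that each left out 1 sham library, with an adjusted p up to 0.149. Acta2 passed in 1 of the 8, with an adjusted p up to 0.220, and Pdgfrb in 6 of the 8, failing without 28-day library 1 or 7-day library 2 (up to 0.0808). Of the genes that missed the threshold, Myh11, the smooth muscle myosin heavy chain, averaged 54.7 ± 10.7 CPM in 28-day sham and 29.4 ± 5.82 CPM in 7-day sham (SD, n = 4 each; adjusted p = 0.0569 by edgeR). The remaining members had log2 differences of 1.06 for Cnn1 (calponin), 0.66 for Tagln (transgelin), 0.37 for the pericyte regulator Rgs5 and 0.35 for the potassium channel Kcnj8.

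**Figure D1:**
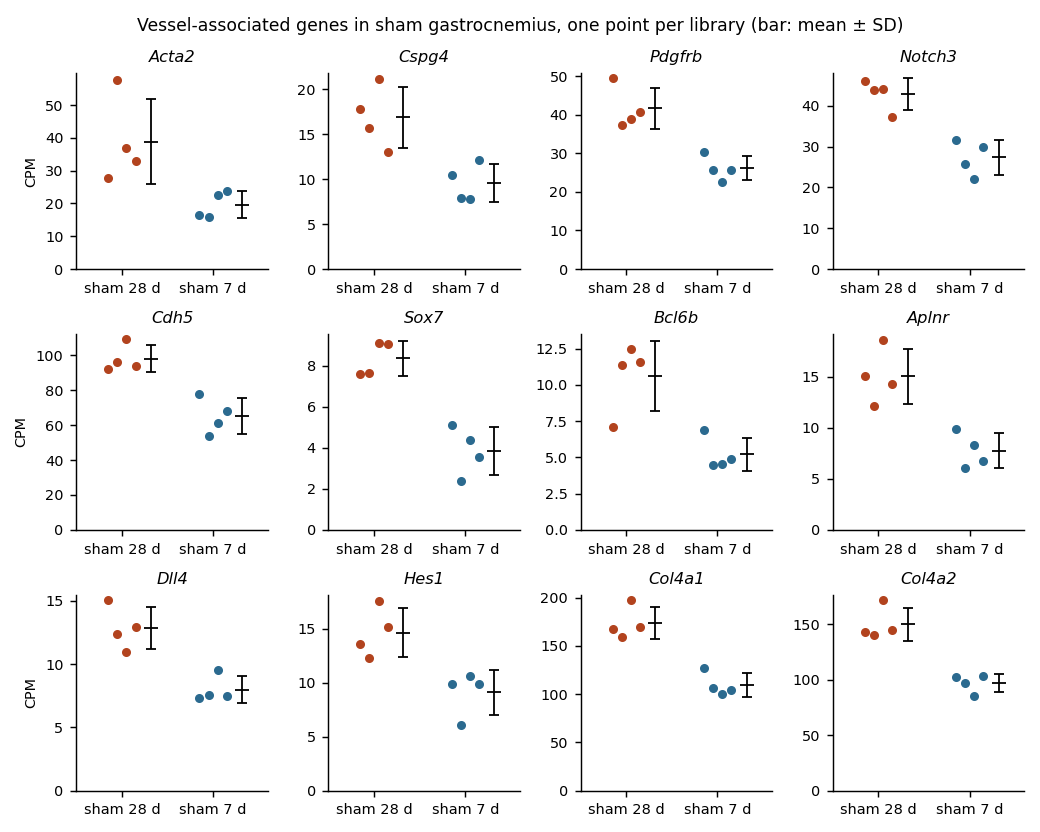
CPM of 12 vessel-associated genes in each sham library, 28-day libraries left and 7-day libraries right in each panel, with the mean and SD over 4 libraries beside the points. In all 12 panels the groups do not overlap, as 9.48% of all genes tested do not, but the 12 were drawn from called genes whose groups are apart, so nothing is read from that share.

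Endothelial genes gave 1 call among 9 markers, where 0.388% of all genes were called higher. That gene was Cdh5, the VE-cadherin that joins endothelial cells, with 92.0, 96.3, 109 and 94.1 CPM in 28-day sham, against 77.8, 53.7, 60.9 and 68.1 CPM in 7-day sham. The groups did not overlap and the log2 difference was 0.59 ± 0.16 (SE, adjusted p = 0.0424). It passed in 1 of the 8 fits without 1 library, with an adjusted p up to 0.164. Over the 9 markers 7 differences were positive, as were 8045 of all 14955 genes tested, and the median of the markers was 0.30. Tie1, an endothelial receptor kinase, had 0.56 (adjusted p = 0.0901), and Kdr, the main VEGF receptor, had 0.66 (adjusted p = 0.107). The list's median was 0.03 with the set term. That term took the difference of Acta2 to 0.15 ± 0.36, of Pdgfrb to 0.28 ± 0.23, of Cspg4 to 0.69 ± 0.35 and of Cdh5 to 0.32 ± 0.24 (SE), none called.

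Beyond the marker list, the genes with the largest called rises included 4 more that are known from endothelium. Sox7, a SoxF transcription factor of endothelial cells, had 7.61, 7.65, 9.10 and 9.08 CPM in 28-day sham, against 5.10, 2.40, 4.38 and 3.54 CPM in 7-day sham. Its log2 difference was 1.11 ± 0.27 (SE, adjusted p = 0.0244), and all 4 of 28-day sham lay above 7-day sham. Bcl6b, a zinc-finger repressor related to Bcl6, had 7.08, 11.3, 12.5 and 11.6 CPM in 28-day sham, against 6.90, 4.45, 4.56 and 4.90 CPM in 7-day sham. Here the lowest 28-day library, library 1, nearly met the highest 7-day library, also numbered 1, and the log2 difference was 1.03 ± 0.23 (SE, adjusted p = 0.0166). Aplnr, the receptor for apelin, had 15.1, 12.1, 18.6 and 14.3 CPM in 28-day sham, against 9.87, 6.05, 8.33 and 6.72 CPM in 7-day sham, a log2 difference of 0.96 ± 0.26 (SE, adjusted p = 0.0441). Dll4, the Notch ligand of arterial endothelium, had 15.05, 12.4, 11.0 and 12.9 CPM in 28-day sham, against 7.32, 7.54, 9.56 and 7.45 CPM in 7-day sham, a log2 difference of 0.69 ± 0.19 (SE, adjusted p = 0.0459). Within 28-day SCI vehicle the set differences of these 4 genes were small, at 0.07 for Sox7, -0.03 for Bcl6b, 0.08 for Aplnr and -0.03 for Dll4. With the set term in the model, the day differences were 1.17 ± 0.41, 1.03 ± 0.37, 0.85 ± 0.42 and 0.71 ± 0.29 (SE), each with an adjusted p of 1.00 by edgeR. Aplnr passed in 0 of the 8 fits without 1 library, Dll4 in 1 of the 8, Sox7 in 2 of the 8 and Bcl6b in 5 of the 8, with adjusted p up to 0.154, 0.157, 0.110 and 0.0673.

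Other Notch pathway genes called at 28 days were chosen for mention after their values were seen. Notch3, the Notch receptor of vascular smooth muscle and pericytes, had 46.2, 43.8, 44.2 and 37.2 CPM in 28-day sham, against 31.7, 25.8, 22.1 and 29.9 CPM in 7-day sham, a log2 difference of 0.65 ± 0.17 (SE, adjusted p = 0.0448). Hes1, a repressor that Notch signalling induces in many cells, had 13.5, 12.3, 17.5 and 15.1 CPM in 28-day sham, against 9.87, 6.05, 10.6 and 9.90 CPM in 7-day sham, a log2 difference of 0.67 ± 0.18 (SE, adjusted p = 0.0441). In both the groups were apart, and 7-day library 2 was the lowest for Hes1. Notch3 had 0.12 ± 0.25 and Hes1 0.40 ± 0.29 (SE) with the set term, without a call. Heyl, another Notch target, averaged 13.9 ± 2.80 CPM in 28-day sham and 7.90 ± 2.46 CPM in 7-day sham and missed the threshold (adjusted p = 0.0999). Vegfa, the growth factor that Kdr binds, had 280.1, 282, 293 and 218 CPM in 28-day sham, against 210.0, 159, 212 and 223 CPM in 7-day sham. Its groups overlapped through 28-day library 4, and the log2 difference was 0.42 ± 0.11 (SE, adjusted p = 0.0397). Notch3 passed in 0 of the 8 fits that left out 1 library, Hes1 in 1 of the 8 and Vegfa in 3 of the 8, with adjusted p up to 0.131, 0.188 and 0.186.

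Of genes for the basement membrane that these cells share, 3 that were called higher are given here. The laminin and nidogen genes of the matrix list (Lamb1, Nid1 and Nid2) were not called. Col4a1 and Col4a2 encode the chains that make up the common type IV collagen. They lie head to head on chromosome 8, Col4a1 on the minus strand from 11198423 to 11312826 and Col4a2 on the plus strand from 11312805 to 11449287 in mm10. Their RefSeq promoter windows overlap by 78 bases and the genes had similar differences. The Col4a1 window, chr8:11312777-11313076 on the minus strand of GRCm38.p6, has a GC content of 74.0%, against a median of 52.7% over all windows. Capitals mark the 78 bases that the Col4a2 window holds on the other strand.
Col4a1: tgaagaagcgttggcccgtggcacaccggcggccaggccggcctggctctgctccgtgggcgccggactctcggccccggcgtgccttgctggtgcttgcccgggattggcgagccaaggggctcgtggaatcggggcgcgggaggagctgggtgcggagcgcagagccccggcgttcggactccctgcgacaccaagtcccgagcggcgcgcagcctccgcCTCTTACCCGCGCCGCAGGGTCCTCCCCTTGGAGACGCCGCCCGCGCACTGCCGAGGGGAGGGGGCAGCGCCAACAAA
Col4a1 had 167, 159, 198 and 169.5 CPM in 28-day sham, against 127, 106, 100.4 and 105 CPM in 7-day sham. Col4a2 had 143, 141, 172 and 145 CPM in 28-day sham, against 103, 97.4, 85.0 and 103 CPM in 7-day sham. In both genes every 28-day library was above every 7-day library, and the log2 differences were 0.66 ± 0.15 (SE, adjusted p = 0.0188) for Col4a1 and 0.63 ± 0.16 (SE, adjusted p = 0.0354) for Col4a2. Their annotated ends touch on opposite strands, and reads from that stretch were not separable. Hspg2, which encodes perlecan, had 225, 221, 273 and 217 CPM in 28-day sham, against 161, 169, 162 and 195 CPM in 7-day sham, a log2 difference of 0.45 ± 0.11 (SE, adjusted p = 0.028). Library 3 was the highest of 28-day sham in all 3 genes. Leaving out 1 library, Col4a1 passed in 5 of the 8 fits, Col4a2 in 0 of the 8 and Hspg2 in 2 of the 8, with adjusted p up to 0.0686, 0.110 and 0.115. Col4a1 was lost without 28-day library 3 or 7-day libraries 2 or 4. Under the set term Col4a1 had 0.46 ± 0.24, Col4a2 0.19 ± 0.24 and Hspg2 0.28 ± 0.17 (SE), without a call. In the extracellular matrix list of 25 genes, Col4a1 and Col4a2 were the only calls, 19 differences were positive and the median was 0.20. Of all 14955 genes tested, 0.388% were called higher and 8045 had a positive difference.

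Genes of mitochondrial energy production stood slightly higher at 28 days. All 44 nuclear genes of oxidative phosphorylation had a positive log2 difference, from 0.05 to 0.68 with a median of 0.24. Of all 14955 genes tested, 8045 had a positive difference. In the list 3 genes passed the test and 35 had an unadjusted p under 0.05, against 0.388% called higher and 14.3% over all genes. The 3, Cox5b, Cox6c and Cox7b, encode subunits of cytochrome c oxidase, the last complex of the respiratory chain. Cox5b had 328, 362, 365 and 299 CPM in 28-day sham, against 276, 255, 258 and 263 CPM in 7-day sham, a log2 difference of 0.36 ± 0.09 (SE, adjusted p = 0.0343). Cox6c had 314, 371, 359 and 311 CPM in 28-day sham, against 286, 237, 255 and 268 CPM in 7-day sham, a difference of 0.37 ± 0.09 (SE, adjusted p = 0.0343). Cox7b averaged 246 ± 22.8 CPM in 28-day sham and 190.4 ± 21.7 CPM in 7-day sham (SD, n = 4 each), a difference of 0.37 ± 0.10 (SE, adjusted p = 0.04). The 3 did not overlap between groups except for Cox7b, whose 28-day library 4 lay under 7-day library 1. Esrra, a nuclear receptor that drives such genes, averaged 144 ± 9.43 CPM in 28-day sham and 115 ± 7.42 CPM in 7-day sham, a difference of 0.33 ± 0.08 (SE, adjusted p = 0.0323), and was named after its value was seen. Cox5b passed in 1 of the 8 fits without 1 library, Cox6c in 2 of the 8, Cox7b in 2 of the 8 and Esrra in 3 of the 8, with adjusted p up to 0.122, 0.136, 0.139 and 0.131. The list held 0 calls in 6 of the 8 such fits, and its median ran from 0.19 to 0.29 over all 8. It held 6 calls by DESeq2, 11 by voom and 0 by edgeR without the filter. The set difference had a median of 0.05 over the list, and with the set term the median day difference was 0.19.

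Fatty acid uptake and oxidation followed the same direction, with 23 of 24 differences positive, a median of 0.35, 15 unadjusted p under 0.05 and 1 call. Of all genes tested, 14.3% had such a p and 0.388% were called higher. Acsl1, which activates fatty acids with coenzyme A, had 371, 351, 367 and 327 CPM in 28-day sham, against 274, 199, 264 and 310.2 CPM in 7-day sham, a log2 difference of 0.44 ± 0.11 (SE, adjusted p = 0.0379) that passed in 2 of the 8 fits without 1 library (adjusted p up to 0.180). Hadh, an enzyme of the beta-oxidation spiral, had a difference of 0.38 (adjusted p = 0.0849). Ucp3, the uncoupling protein of muscle mitochondria, had 107, 70.0, 116 and 135 CPM in 28-day sham, against 61.0, 41.9, 76.9 and 57.0 CPM in 7-day sham and an adjusted p of 0.143. Pdk4, the kinase that restrains pyruvate entry, had 346, 355, 417 and 382 CPM in 28-day sham, against 191, 201, 215 and 277 CPM in 7-day sham and an adjusted p of 0.325. In both genes but for 28-day library 2 of Ucp3 the 28-day libraries lay above 7-day sham, yet neither passed the test. Ucp3 and Pdk4 were named after their values were seen, and 9.48% of all genes tested did not overlap between the groups. Leaving out 1 library moved the list's median between 0.21 (without 7-day library 2) and 0.50 (without 7-day library 4). Mitochondrially encoded genes gave 0 calls among 10 measured (2 with an unadjusted p under 0.05), with 9 positive differences and a median of 0.20. mt-Nd4 had the smallest p of them, at a difference of 0.29 (adjusted p = 0.212).

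The largest called rise under the naming rule was Trp53i11, a gene known as inducible by p53. It had 14.3, 7.39, 15.2 and 14.02 CPM in 28-day sham, against 5.94, 2.06, 3.42 and 5.63 CPM in 7-day sham, a log2 difference of 1.57 ± 0.30 (SE, adjusted p = 0.00592). All 4 of 28-day sham lay above 7-day sham, with 28-day library 2 the lowest of its group, and the call held in 8 of the 8 fits without 1 library. Its set difference was 0.96, and with the set term its day difference was 0.54 ± 0.47 (SE). Fscn1, the actin-bundling protein fascin, had 16.2, 15.8, 15.3 and 18.8 CPM in 28-day sham, against 9.45, 10.05, 8.77 and 9.54 CPM in 7-day sham, a difference of 0.81 ± 0.18 (SE, adjusted p = 0.0147) that also held in 8 of the 8 fits. Of the named rises, these were the only 2 that did so. Tbx2, a T-box repressor, averaged 6.98 ± 0.964 CPM in 28-day sham and 3.80 ± 0.379 CPM in 7-day sham (difference 0.87, adjusted p = 0.0383). Pcdh1, a protocadherin, averaged 14.5 ± 0.597 CPM in 28-day sham and 8.15 ± 2.14 CPM in 7-day sham (difference 0.83, adjusted p = 0.0294). Rap1gap, which switches off the GTPase Rap1, averaged 9.03 ± 2.64 CPM in 28-day sham and 4.77 ± 0.671 CPM in 7-day sham (difference 0.91, adjusted p = 0.0474). Tbx2 and Rap1gap passed in 0 of the 8 fits without 1 library and Pcdh1 in 1, with adjusted p up to 0.111, 0.154 and 0.108.

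Stress and protein turnover genes added single calls. Ddit3, the stress factor CHOP, had 16.2, 15.04, 18.7 and 12.6 CPM in 28-day sham, against 9.66, 5.14, 11.0 and 11.4 CPM in 7-day sham, a log2 difference of 0.74 ± 0.18 (SE, adjusted p = 0.0259), and was the only call among 16 genes of heat shock and endoplasmic reticulum stress. It overlaps Mars on the opposite strand, and reads there were not separable. It passed in 3 of the 8 fits without 1 library (adjusted p up to 0.115). Fbxo21, an F-box subunit of a ubiquitin ligase, had 18.1, 20.9, 20.1 and 23.4 CPM in 28-day sham, against 16.0, 13.2, 15.2 and 16.1 CPM in 7-day sham, a difference of 0.44 ± 0.10 (SE, adjusted p = 0.0155), the only call among 14 atrophy-related ligase genes, whose median was -0.09. It passed in 5 of the 8 such fits (up to 0.0769). Of all genes tested, 0.388% were called higher. An unadjusted p under 0.05 was found for 4 of the ligase genes and 1 of the stress genes, against 14.3% of all genes. These single calls are not read as results about the lists.

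Genes lower at 28 days were led by the transcripts that part the library sets. Hipk2 had 10.5, 6.25, 21.8 and 13.5 CPM in the 4 libraries of 28-day sham, against 100.4, 118, 80.4 and 119 CPM in the 4 of 7-day sham. The groups were far apart and the log2 difference was -3.01 ± 0.63 (SE, adjusted p = 0.00924). In 28-day SCI vehicle it averaged 6.93 CPM in libraries 1 to 4 and 94.4 CPM in libraries 5 and 6. Acvr2b, an activin and myostatin receptor, had 2.92, 2.55, 3.03 and 2.72 CPM in 28-day sham, against 17.7, 9.36, 7.45 and 10.4 CPM in 7-day sham, a difference of -1.99 ± 0.44 (SE, adjusted p = 0.0155), with a set difference of -2.15. Pdpr, the regulatory subunit of pyruvate dehydrogenase phosphatase, had 59.2, 50.9, 76.5 and 62.3 CPM in 28-day sham, against 157, 141, 127 and 155 CPM in 7-day sham, a difference of -1.22 ± 0.26 (SE, adjusted p = 0.00964), with a set difference of -1.34. The signs turned with the set term, to 0.77 ± 0.40 for Hipk2, 0.26 ± 0.48 for Acvr2b and 0.12 ± 0.25 for Pdpr (SE, adjusted p 1.00 by edgeR). Hipk2 and Pdpr were not called without 28-day library 2 (adjusted p 0.0539 and 0.0539), and Acvr2b was not without 28-day libraries 1 or 2 or 7-day library 1 (up to 0.0712). AC113003.1, which overlaps Kif5b on the other strand, had a difference of -1.37 and, with the term, 0.08 ± 0.24. For A630019I02Rik itself the difference was -6.35 ± 1.43 (SE, adjusted p = 0.0169) and, with the term, 0.99, and the call ended without 28-day libraries 1, 2 or 3 (adjusted p up to 0.072).

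**Figure D2:**
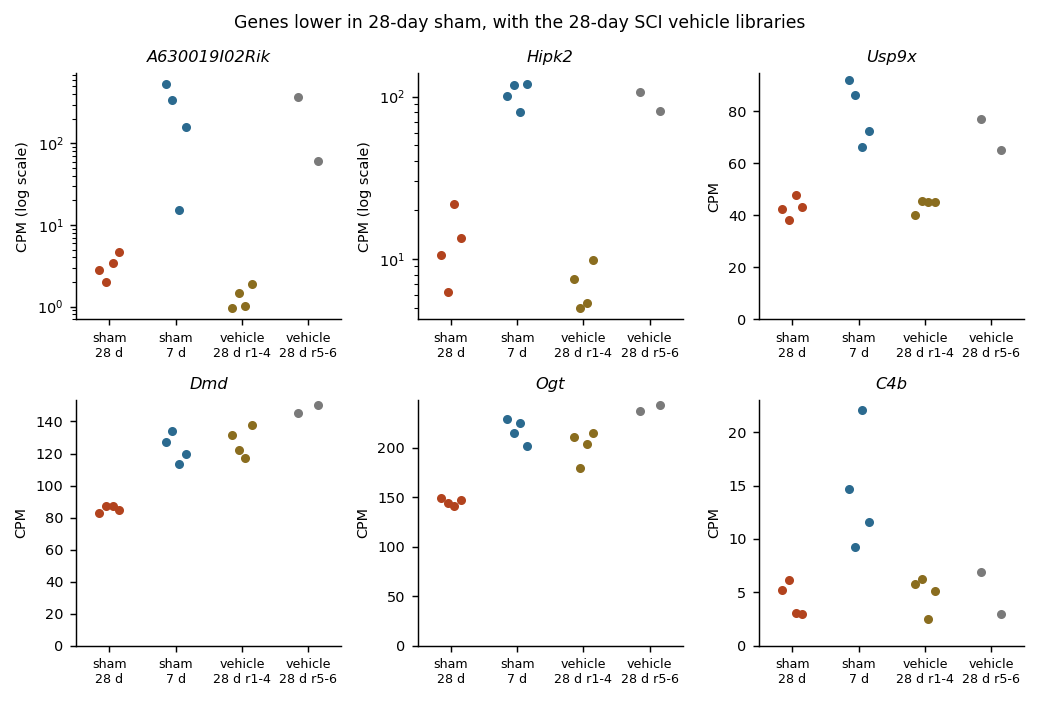
CPM of 6 genes called lower at 28 days, in sham at 28 and 7 days and in 28-day SCI vehicle, split into numbers 1 to 4 and 5 to 6, 1 point per library, with a log axis for A630019I02Rik and Hipk2. In A630019I02Rik, Hipk2, Usp9x, Dmd and Ogt the vehicle libraries 1 to 4 lie below libraries 5 and 6, as 28-day sham lies below 7-day sham, whereas C4b has no such split in vehicle libraries.

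This split was general among the called genes. Within 28-day SCI vehicle, where the day is the same, 217 of the 225 lower genes (96.4%) were lower in libraries 1 to 4 than in libraries 5 and 6, with a median of -0.37, against 47.4% of all genes. Of the 58 higher genes 50 (86.2%) were higher there, with a median of 0.16, against 52.6% of all genes. Under the set term the median of the 225 was -0.16, 33 of them turned positive, and the median of the 58 was 0.36 with all 58 positive. Both groups of genes were chosen by the same sham day difference, so these signs and medians are no independent evidence of it. The median SE of these genes grew with the term, from 0.12 to 0.17 for the lower and from 0.15 to 0.23 for the higher, since 6 vehicle libraries alone set its size.

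**Figure D3:**
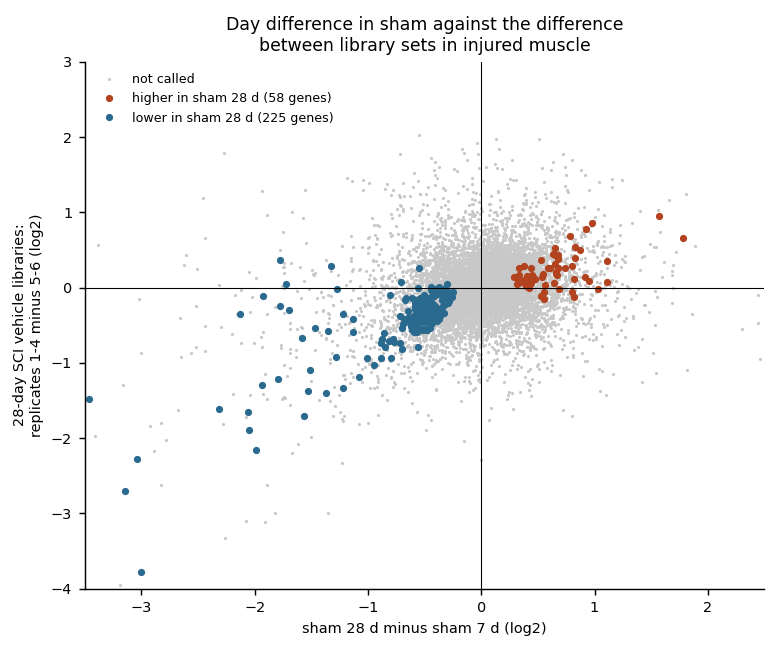
Each gene's log2 difference between 28-day and 7-day sham (x axis) against its set difference within 28-day SCI vehicle (y axis), with the 58 higher and 225 lower genes coloured. Most lower genes lie below 0 on both axes and most higher genes above 0, and 13 genes lie outside the axes.

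The other named falls were mostly enzymes and regulators that many cells express. Usp9x, a deubiquitinating enzyme, had 42.4, 38.4, 47.9 and 43.4 CPM in 28-day sham, against 91.9, 86.1, 66.1 and 72.4 CPM in 7-day sham, a log2 difference of -0.88 ± 0.15 (SE, adjusted p = 0.00248). Dennd4c, an activator of Rab GTPases, averaged 25.1 ± 1.66 CPM in 28-day sham and 45.6 ± 9.75 CPM in 7-day sham, a difference of -0.86 ± 0.16 (SE, adjusted p = 0.0048). Ankhd1, a large ankyrin-repeat protein, averaged 13.0 ± 0.485 CPM in 28-day sham and 26.2 ± 6.18 CPM in 7-day sham, a difference of -1.01 ± 0.21 (SE, adjusted p = 0.00924). These 3 held in 8 of the 8 fits without 1 library. Kat6a, a histone acetyltransferase, averaged 26.7 ± 6.29 CPM in 28-day sham and 46.3 ± 7.57 CPM in 7-day sham (-0.80, adjusted p = 0.0278), and Fam120c averaged 6.69 ± 1.70 CPM in 28-day sham and 12.3 ± 2.12 CPM in 7-day sham (-0.88, adjusted p = 0.00924). Fam173b, a methyltransferase of mitochondria, averaged 7.83 ± 0.711 CPM in 28-day sham and 13.8 ± 3.11 CPM in 7-day sham (-0.81, adjusted p = 0.0198). Kat6a was called in 3 of the 8 fits without 1 library and Fam173b in 5 of the 8, with adjusted p up to 0.128 and 0.110, and Fam120c was lost without 28-day library 2 (0.0595).

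Outside the rule, genes named after their values were seen included Ogt, the enzyme that adds O-GlcNAc to proteins, with 149.7, 144, 141 and 147 CPM in 28-day sham, against 229, 215, 225 and 201 CPM in 7-day sham. Its groups were apart and its log2 difference was -0.58 ± 0.09 (SE, adjusted p = 0.00248). The ubiquitin ligases Ubr1 and Huwe1 had differences of -0.57 ± 0.10 (SE, adjusted p = 0.0048) and -0.49 ± 0.10 (SE, adjusted p = 0.00959). Ubr1 averaged 39.6 ± 2.65 CPM in 28-day sham and 58.8 ± 8.71 CPM in 7-day sham. Ogt, Ubr1 and Huwe1 held in 8 of the 8 fits without 1 library. With the set term Ogt had -0.33 ± 0.14, Ubr1 -0.25 ± 0.15 and Huwe1 -0.04 ± 0.12 (SE), without a call.

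Of 12 very long muscle transcripts, Dmd fell and Hspg2, described above, rose. Dmd, which encodes dystrophin, the link between the fibre's cytoskeleton and its basement membrane, had 82.6, 87.2, 87.4 and 84.5 CPM in the 4 libraries of 28-day sham, against 127, 134, 113 and 120.0 CPM in the 4 of 7-day sham. The groups were apart and the log2 difference was -0.53 ± 0.10 (SE, adjusted p = 0.0048), kept in 8 of the 8 fits without 1 library. Ttn, the giant protein titin of the sarcomere, averaged 9691 ± 414 CPM in 28-day sham and 14145 ± 1287 CPM in 7-day sham and missed the threshold (-0.55, adjusted p = 0.0713). The list's median was -0.34 and 9 of its 12 differences were negative, as were 6899 of all 14955 genes tested. DESeq2 and voom each called 4 of the list lower and 1 higher, and called 378 and 324 of all 14955 genes lower. In the sham libraries alone edgeR called 6 of the list lower, and 316 of 13467 genes. With the set term the list's median was -0.03, with 0 calls. Musk, the kinase that organises the neuromuscular junction, had 13.7, 7.83, 13.5 and 15.3 CPM in 28-day sham, against 15.3, 21.8, 27.6 and 21.4 CPM in 7-day sham, a difference of -0.78 ± 0.21 (SE, adjusted p = 0.0434). It was the only call among 20 junction and denervation genes, and it passed in 2 of the 8 fits without 1 library (adjusted p up to 0.197). The median of that list was -0.01, and its sign turned in 4 of the 8 such fits. Acaca, the enzyme that commits acetyl-CoA to fatty acid synthesis, averaged 12.9 ± 1.499 CPM in 28-day sham and 19.5 ± 1.64 CPM in 7-day sham, a difference of -0.59 ± 0.13 (SE, adjusted p = 0.0147), and was the only call among 20 cholesterol and SREBP genes. Without 28-day library 1 its adjusted p was 0.0519. The cholesterol and SREBP list had a median of -0.20, with 15 of its 20 differences negative. An unadjusted p under 0.05 was found for 2 junction and 4 cholesterol genes, against 14.3% of all genes. Of all genes tested, 1.5% were called lower, and these single calls are not read as results about the lists.

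Called falls gathered among long transcripts. The longest transcript of the 225 lower genes had a median of 7394 bases, against 3465 bases for the 58 higher genes and 3134 bases for all genes tested. With genes put in 5 equal bins by length, the longest bin, from 5061 bases up, held 168 of the 225 calls, 5.63% of that bin, where 1.5% of all genes were called lower. The median difference of that bin was -0.10, against 0.05, 0.06, 0.05 and 0.01 in the other 4 bins, shortest first. GC content of these transcripts had a median of 45.4% in the lower genes, 53.5% in the higher and 49.8% in all. The bin with the highest GC held 26 of the 58 higher calls and 2 of the lower ones. Offsets for length and GC, added after these lengths were seen, left 86 calls, 25 higher and 61 lower. Of the 46 called genes named here 27 stayed called and 19 did not. Among the falls that were lost, Dmd had -0.22 (adjusted p = 0.315) and Huwe1 -0.22 (0.163), against -0.53 and -0.49 without offsets, while Musk had -0.84 (0.0606), Kat6a -0.61 (0.0611) and Acaca -0.42 (0.0868). Among the rises that were lost, Acta2 had 0.96 (0.0736), Sox7 1.04 (0.0506), Aplnr 0.90 (0.0996), Cdh5 0.51 (0.102), Hes1 0.65 (0.0966), Dll4 0.55 (0.169) and Vegfa 0.35 (0.126). The other lost rises were Cox6c, Esrra, Fbxo21, Rap1gap, Tbx2, Pcdh1 and Fscn1.

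**Figure D4:**
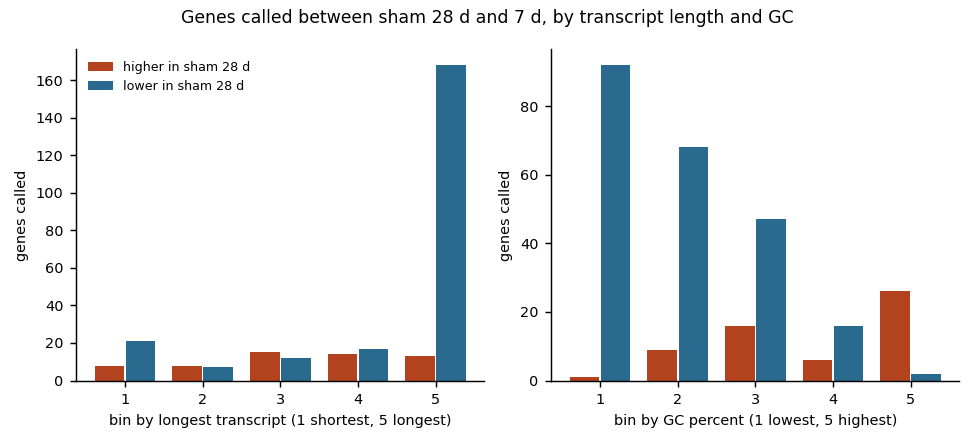
Number of genes called higher and lower at 28 days in each of 5 equal bins of the genes tested, by the length of the longest annotated transcript (left) and by its GC percent (right). The longest bin holds 168 lower calls, and the highest-GC bin holds 26 higher and 2 lower calls.

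C4b, a complement component, was a fall without a counterpart in the set difference. It had 5.22, 6.16, 3.03 and 2.93 CPM in the 4 libraries of 28-day sham, against 14.6, 9.25, 22.1 and 11.6 CPM in the 4 of 7-day sham. The groups were apart and the log2 difference was -1.73 ± 0.40 (SE, adjusted p = 0.0202). Within 28-day SCI vehicle the set difference was 0.05, and with the set term the day difference was -1.75 ± 0.67 (SE), with an adjusted p of 1.00. C4b has a near-identical copy, C4a, and it is not known how reads were shared between them. The call ended without 28-day libraries 1, 3 or 4 or 7-day library 3 (adjusted p up to 0.0731). Hmgb1-ps8, a pseudogene that shares sequence with Hmgb1, had 2.66, 3.78, 2.75 and 3.63 CPM in 28-day sham, against 11.5, 16.3, 12.5 and 8.99 CPM in 7-day sham and is likewise uncertain in its source (-1.94, adjusted p = 0.00592).

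Slow-fibre genes gave 0 calls among 12 by edgeR, 0 also with an unadjusted p under 0.05, and their spread within each group was large. Voom, DESeq2 and the other alternatives also gave 0. Summed over the 12 genes, the level was 2409, 2064, 1734 and 869 CPM in 28-day sham, against 1771, 363, 1522 and 2217 CPM in 7-day sham. The groups overlapped. Library 4 was the lowest of 28-day sham, and 7-day library 2 was the lowest of all 8. Taken as the mean log2 CPM over the list, 28-day sham had 6.19 ± 0.624 and 7-day sham 5.81 ± 1.06 (SD, n = 4 each), a difference of 0.38. Without 7-day library 2 it was -0.14, so the direction rests on that library.

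Myh7, the slow myosin heavy chain, had 807, 652, 413 and 212 CPM in the 4 libraries of 28-day sham, against 578, 89.8, 549 and 762 CPM in the 4 of 7-day sham, a log2 difference of 0.07 ± 0.57 (SE, adjusted p = 0.975). Both groups ran over much the same range. Myl3, the slow essential light chain, had 288, 243, 236 and 145 CPM in 28-day sham, against 191, 27.5, 149 and 244 CPM in 7-day sham, a difference of 0.57 ± 0.45 (SE, adjusted p = 0.625). Its promoter window from RefSeq, chr9:110763428-110763727 on the plus strand of GRCm38.p6, is shown for 1 of the genes that vary together here. Capitals mark a CArG box, the binding motif of serum response factor, which 1.63% of the 32851 windows hold on either strand. The windows of the other slow-fibre genes were not looked at singly, and control by this factor was not tested.
Myl3: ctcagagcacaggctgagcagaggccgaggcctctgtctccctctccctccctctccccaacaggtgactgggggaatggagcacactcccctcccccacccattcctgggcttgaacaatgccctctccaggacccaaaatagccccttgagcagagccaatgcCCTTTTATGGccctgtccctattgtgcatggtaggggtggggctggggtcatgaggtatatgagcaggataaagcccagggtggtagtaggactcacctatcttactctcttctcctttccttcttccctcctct
Myl2, the slow regulatory light chain, had 211, 139, 215 and 83.6 CPM in 28-day sham, against 119, 23.5, 82.0 and 169 CPM in 7-day sham. In all 3 genes 7-day library 2 was the lowest of the 8 and 28-day library 4 the lowest of its group. Tnnt1, the slow troponin T, had 171, 171, 107 and 51.6 CPM in 28-day sham, against 122, 28.4, 103 and 136 CPM in 7-day sham. Tnni1, the slow troponin I, had 86.7, 65.3, 36.5 and 18.0 CPM in 28-day sham, against 56.3, 10.7, 42.3 and 60.9 CPM in 7-day sham. Both troponins were lowest in 7-day library 2. Atp2a2, the calcium pump SERCA2 of slow fibres, had 404, 389, 390.2 and 193 CPM in 28-day sham, against 361, 94.3, 289 and 419 CPM in 7-day sham. Casq2, the calcium store protein calsequestrin-2, had 30.2, 26.7, 22.3 and 11.8 CPM in 28-day sham, against 19.8, 8.91, 24.8 and 45.1 CPM in 7-day sham, and its highest value was in 7-day library 4. Myl6b, an alkali light chain, had 5.399, 5.98, 6.73 and 6.56 CPM in 28-day sham, against 7.01, 5.48, 6.399 and 7.81 CPM in 7-day sham and did not share the pattern. The log2 differences of the 12 ran from -0.12 to 0.72, and the smallest p was that of Myl2 (0.142, adjusted p = 0.538).

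**Figure D5:**
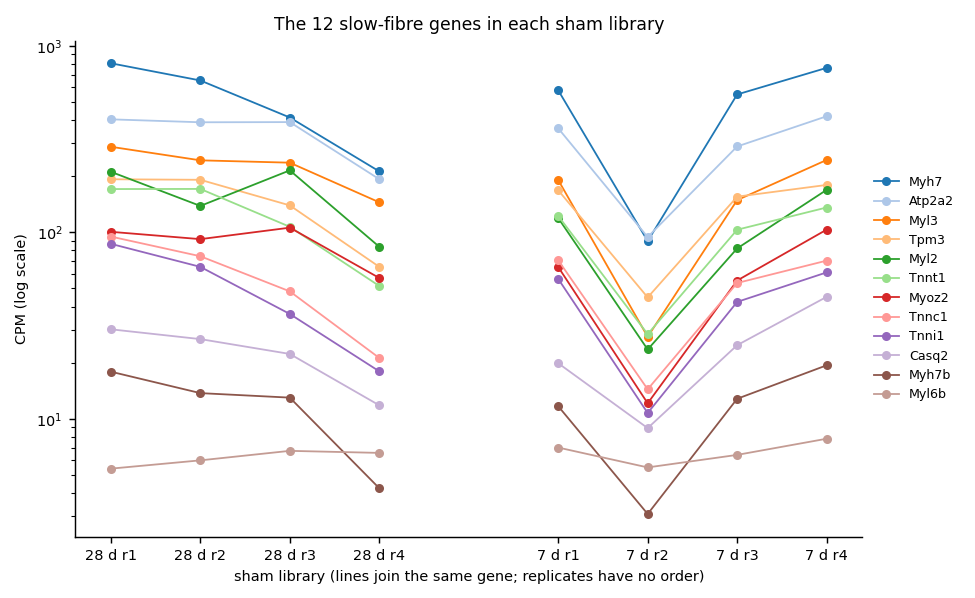
CPM on a log axis of the 12 slow-fibre genes in each sham library, 28-day libraries left and 7-day libraries right, with lines joining the same gene. In 11 of the 12 genes 28-day library 4 is the lowest of the 28-day libraries and 7-day library 2 the lowest of all 8, and Myl6b is nearly level.

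Over the 8 sham libraries, with each group centred, the genes most like Myh7 by Pearson correlation of log2 CPM outside the slow list are given as a description, since the libraries share depth and makeup. They are the extremes of all genes with a mean of at least 5 CPM. 7-day library 2, the lowest of the 8 for Myh7, weighs heavily in these values, and none was computed without it. Slc25a23 (14.2 CPM) and Clk4 (59.8 CPM) stood far from the rest of their group in that library. Mhrt had a correlation of 1.00, but it overlaps Myh7 on the opposite strand and the reads were not separable. Slc25a23, a mitochondrial carrier, had 0.98, and Prkcsh, a glucosidase subunit of the endoplasmic reticulum, 0.98. Slc29a2, a nucleoside transporter, had 0.97, Acaa1a and Eci1, both of fatty acid oxidation, 0.97 each, Gimap8 0.96, and Decr1, an auxiliary enzyme of beta-oxidation, 0.96. Decr1 had 147, 146, 147 and 125 CPM in 28-day sham, against 123, 88.7, 117 and 130.2 CPM in 7-day sham. In it 7-day library 2 and 28-day library 4 were the lowest of their groups, as for Myh7. Running against Myh7 were Clk4, a splicing kinase, at -0.99, and Ube2g1, Filip1 and Gkap1 at -0.96 each. Filip1, which binds filamin, was also called lower at 28 days (-0.72, adjusted p = 0.00248), in each fit without 1 library. Among fast-fibre genes, Myh2, the IIa myosin, had 3205, 4033, 3539.6 and 2662 CPM in 28-day sham, against 2261, 585, 2285 and 4154 CPM in 7-day sham. Myh1, the IIx myosin, had 3994, 4754, 5323 and 3626 CPM in 28-day sham, against 3364, 1508, 3836 and 4003 CPM in 7-day sham. Both were lowest in 7-day library 2. Actn2, an alpha-actinin of the Z-disc, had 1089, 1038, 1091 and 711 CPM in 28-day sham, against 657, 237, 659.7 and 1008 CPM in 7-day sham, with a correlation to Myh7 of 0.94. Ankrd2, a stretch-responsive Z-disc partner gene, had 270.1, 132, 143 and 86.6 CPM in 28-day sham, against 67.4, 11.6, 61.2 and 168 CPM in 7-day sham. Csrp3, the muscle LIM protein, had 156, 58.9, 66.6 and 45.6 CPM in 28-day sham, against 34.2, 3.77, 25.6 and 78.3 CPM in 7-day sham. Neither passed the test (adjusted p = 0.403 and 0.483).

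The injured groups set the scale for this spread. Summed slow-fibre levels were 147 to 295 CPM in SCI boldine and 148 to 216 CPM in SCI vehicle at 28 days, all below the lowest 28-day sham library at 869 CPM. At 7 days they were 417 to 1004 CPM in SCI boldine and 133 to 787 CPM in SCI vehicle, so that 7-day sham library 2, at 363 CPM, lay inside the range of 7-day SCI vehicle. The difference between days was tested against that of injured muscle. For Myh7 the sham day difference exceeded that of SCI boldine (-4.63) by 4.70 ± 0.82 (SE, adjusted p = 6.05e-05) and that of SCI vehicle (-4.79) by 4.86 ± 0.84 (SE, adjusted p = 7.75e-05). Casq2 went the other way, with a day difference of -0.12 in sham, 1.55 in SCI boldine and 1.45 in SCI vehicle, and the sham difference departed by -1.67 ± 0.38 (SE, adjusted p = 0.00112) and -1.57 ± 0.38 (SE, adjusted p = 0.00288). Over all genes the sham day difference departed from that of SCI boldine in 28.4% of genes and from that of SCI vehicle in 23.9%, both of which share the sham libraries. SCI boldine itself changed in 43.1% of genes between days. TMM factors were 1.04 to 1.36 in the injured 7-day libraries and 0.824 to 0.950 in all others. Scaling by library totals shifted the median of all genes by 0.53 against SCI boldine and by 0.49 against SCI vehicle. The calls then split into 6868 higher and 637 lower against SCI boldine, where TMM gave 2113 and 2129, and into 6294 and 533 against SCI vehicle, where TMM gave 1843 and 1736. With the set term the departure of Myh7 from SCI boldine was 3.43 and that of Casq2 -1.49, without a call (adjusted p = 0.166 and 0.0662).

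Day differences of the vessel genes were set beside those of injured muscle in the same way. Pdgfrb had 0.68 in sham, 0.64 in SCI boldine and 0.94 in SCI vehicle, and the sham difference departed by 0.04 ± 0.20 (SE, adjusted p = 0.913) and -0.27 ± 0.20 (SE, adjusted p = 0.347), neither past the threshold. Dll4 had 0.69, 0.54 and 0.84 in the same order, with departures of 0.14 ± 0.24 (SE, adjusted p = 0.708) and -0.15 ± 0.24 (SE, adjusted p = 0.690). Aplnr had 0.96 in sham, -0.67 in SCI boldine and 0.01 in SCI vehicle, and here the sham difference was higher by 1.63 ± 0.34 (SE, adjusted p = 0.000473) and 0.95 ± 0.33 (SE, adjusted p = 0.0353). Hes1 likewise had 0.67 in sham, -0.49 in SCI boldine and -0.07 in SCI vehicle, departures of 1.17 ± 0.24 (SE, adjusted p = 0.000344) and 0.74 ± 0.23 (SE, adjusted p = 0.018). Vegfa rose less in sham than in injured muscle, with 0.42 against 1.07 in SCI boldine and 1.23 in SCI vehicle, departures of -0.66 ± 0.14 (SE, adjusted p = 0.00068) and -0.82 ± 0.14 (SE, adjusted p = 8.38e-05). With library totals these were -0.13 and -0.33 (adjusted p = 0.510 and 0.0982), so the call for Vegfa rests on the TMM scaling, while Pdgfrb and Dll4 then departed from SCI boldine by 0.56 and 0.67 (adjusted p = 0.0251 and 0.0234). Fbxo21 rose in sham at 0.44, with -0.10 in SCI boldine and -0.03 in SCI vehicle, departures of 0.54 ± 0.12 (SE, adjusted p = 0.00137) and 0.47 ± 0.12 (SE, adjusted p = 0.00529). The departure of Aplnr from SCI vehicle ended without 28-day libraries 1 or 3 or 7-day libraries 2 or 4 (adjusted p up to 0.0863), and that of Hes1 without 28-day library 3 or 7-day library 2 (up to 0.0559). With the set term, the departures of Hes1 and Fbxo21 from SCI boldine had adjusted p of 0.0703 and 0.0721, and that of Aplnr from SCI vehicle 0.0636. These 6 genes were called by the sham part of this difference, so their departures are no independent evidence of it.

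Markers of other tissues in the sample gave 0 calls by edgeR, DESeq2 or voom. Adipocyte genes had a median of -1.43 over 7 measured, 6 of them negative. Leaving out 1 library moved that median between -2.52 (without 28-day library 2) and -0.86 (without 7-day library 1). Over the 7 genes, the summed level was 136, 178, 141 and 107 CPM in 28-day sham, against 243, 96.0, 144 and 124 CPM in 7-day sham. Adipoq, the fat hormone adiponectin, had 0.885, 4.57, 1.61 and 0.504 CPM in 28-day sham, against 15.8, 4.11, 6.05 and 3.18 CPM in 7-day sham (adjusted p = 0.134). Plin1, the coat protein of fat droplets, had 1.505, 7.48, 1.80 and 0.706 CPM in 28-day sham, against 13.3, 4.45, 7.01 and 4.36 CPM in 7-day sham, and Cfd, the fat-cell protease adipsin, 4.07, 20.6, 5.97 and 5.15 CPM in 28-day sham, against 62.2, 11.2, 29.3 and 13.5 CPM in 7-day sham. In all 3 genes 7-day library 1 was the highest, and 28-day library 2 stood above the rest of its group. Schwann cell markers had a median of -0.46 with 7 of 9 negative, and 7-day library 2 held the highest sum. Without that library the median was 0.31, and it was 0.04 with voom, so the direction rests on 1 library. Pmp22, a myelin protein, had 20.4, 22.2, 36.4 and 28.7 CPM in 28-day sham, against 31.3, 99.6, 33.7 and 18.0 CPM in 7-day sham. Macrophage markers had a median of -0.43 over 11 (-0.62 to -0.23 when 1 library was left out), with C1qb of complement at 5.49, 3.87, 3.13 and 2.83 CPM in 28-day sham, against 5.10, 3.31, 8.59 and 5.72 CPM in 7-day sham, which overlap. None of 9 lymphocyte markers passed the filter, and 3 neutrophil and 5 erythrocyte genes gave 0 calls. An unadjusted p under 0.05 was found for 2 adipocyte, 1 Schwann cell and 3 macrophage markers, and for 0 of the neutrophil and erythrocyte genes. Of all genes tested 14.3% had such a p.

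Lists for growth, activity and the clock gave 0 calls by edgeR. The 16 growth and imprinted genes gave 0 calls with a median of 0.05, and Peg3, a maternally silenced regulator, had 13.0, 10.4, 9.38 and 9.28 CPM in 28-day sham, against 28.7, 18.0, 10.3 and 13.2 CPM in 7-day sham. Of 9 measured cell cycle genes 0 were called, with a median of 0.07. The 17 clock genes had a median of -0.02 and 0 calls, and Nr1d1, the clock repressor REV-ERB alpha, had 216, 192, 205 and 160.3 CPM in 28-day sham, against 151, 159, 121 and 187 CPM in 7-day sham. The 15 immediate early genes had a median of 0.17, and 15 of the 16 glucocorticoid response genes had a negative difference with a median of -0.25, also without a call. That median ran from -0.38 without 7-day library 1 to -0.13 without 7-day library 2. Nr3c1, the glucocorticoid receptor, had 72.4, 70.8, 73.3 and 81.1 CPM in 28-day sham, against 99.6, 106, 90.6 and 93.5 CPM in 7-day sham. Its groups were apart but the adjusted p was 0.268. Proteasome, ribosomal protein, and autophagy and lysosome genes had medians of 0.01, 0.09 and 0.02 with 0 calls among 31, 49 and 16. Fast-fibre genes had a median of -0.02 over 17, developing and loaded muscle genes 0.04 over 13, and satellite cell genes 0.14 over 9, all with 0 calls. The 10 measured hemichannel and purinergic receptor genes had a median of 0.36 and 0 calls, among them Gja1 (connexin 43) at 11.7, 14.7, 12.8 and 14.9 CPM in 28-day sham, against 8.81, 12.8, 10.3 and 10.5 CPM in 7-day sham. At an unadjusted p under 0.05 stood 2 growth, 2 clock and 1 glucocorticoid response gene, 3 ribosomal protein genes, 1 autophagy gene, 1 satellite cell gene and 2 hemichannel or purinergic receptor genes, and none of the other lists just named. Of all genes tested 14.3% had such a p, so these counts and those that follow are not read as results about the lists. The tricarboxylic acid cycle list had a median of 0.15 over 16 genes, 2 of them at an unadjusted p under 0.05. The antioxidant list had a median of 0.08 over 20 genes, with 5 such genes. Interferon genes had a median of 0.12 over 14, with 1, and inflammatory signalling genes 0.06 over 9, with 0. The glycolysis list had a median of -0.02 over 15 genes, with 1. Fibro-adipogenic progenitor markers had a median of -0.09 over 10, with 1, and tendon markers -0.32 over 9, with 0. Without 7-day library 2 the tendon median was 0.05. The list of nuclear long non-coding RNAs had a median of -0.16 over 10, with 1. These 8 lists also gave 0 calls by edgeR. Among the lists of this paragraph, DESeq2 and library totals gave 0 calls too. Voom called 1 satellite cell and 1 ribosomal protein gene higher and 1 long non-coding RNA lower, and edgeR without the filter, or without 7-day library 3, called 1 long non-coding RNA lower. In the 8 sham libraries alone edgeR called lower 1 gene each of the glucocorticoid, growth and long non-coding RNA lists, and called 1 hemichannel or purinergic receptor gene higher. With the slow-fibre covariate added, these 4 counts were the same and 2 genes of developing and loaded muscle were called higher. Leaving out 1 library turned the sign of the median for the growth, clock, proteasome, autophagy, fast-fibre, developing muscle, glycolysis, fibro-adipogenic and tendon lists.

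The genes that differed most among muscles of 1 group gave 0 calls between days. Besides Myh7, Csrp3 and Ankrd2, the 10 with the largest within-group SD of log2 CPM were Mir6236, Arrdc2, Nmrk2, Egr1, Lars2, Scd1 and Gadd45g. Lars2, the mitochondrial leucyl-tRNA synthetase, had 88.4, 45.9, 97.0 and 222 CPM in 28-day sham, against 140.0, 1166, 468 and 143 CPM in 7-day sham, with 7-day library 2 far above the others. Mir6236 had 1.86, 0.264, 2.27 and 6.96 CPM in 28-day sham, against 2.87, 31.5, 7.01 and 1.18 CPM in 7-day sham, again highest in that library. Scd1, the desaturase that makes monounsaturated fat, had 14.5, 80.6, 10.1 and 12.1 CPM in 28-day sham, against 201, 87.8, 40.1 and 52.7 CPM in 7-day sham. Egr1, an immediate early factor, had 7.70, 2.11, 18.3 and 5.65 CPM in 28-day sham, against 3.61, 26.3, 3.24 and 11.99 CPM in 7-day sham. The adjusted p of these 4 genes lay between 0.218 for Scd1 and 0.892 for Egr1, and no test was made of the spread.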

How the data were processed

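mRNA libraries of mouse gastrocnemius were prepared with a NEBNext Ultra RNA kit, per the labels' protocols, a kit that does not mark strand. The authors deposited raw read counts per Ensembl gene for all 32 libraries. SCI boldine library 6 of 28 days carries a column name from the series of the SCI vehicle columns, and was grouped by its title. Per the submitters' processing notes, FastQC, Trim Galore, cutadapt and STAR were used with mm10. The sources used here do not give tool versions, the counting step or its annotation. Of 55487 identifiers 55227 were named with GENCODE M21, and the other 260 held 0.0189% of counts. A further 116 were set aside because another identifier kept the symbol. No pair of libraries held identical values.

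Counts were tested with edgeR 4.0.16 in R 4.3.3 (quasi-likelihood, TMM, filterByExpr at min.count 10 and min.total.count 15) in 1 model of all 32 libraries with 6 group means. P-values are two-sided and Benjamini-Hochberg adjusted over all genes tested, with a threshold of 0.05, and printed adjusted p come from this test unless another tool is named. Log2 CPM used a prior count of 2. Alternatives used library totals, DESeq2 1.42.0, limma 3.58.1 (voom with sample quality weights), no filter, a set term, the sham libraries alone with and without a replicate block or slow-fibre covariate, and leaving out each library. Length and GC offsets, and leaving out each library for the slow-fibre level, were added after the data were seen. Scripts were tested on simulated data.

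Members, gene lists and rules were chosen with earlier results of these data known. Named are the 12 largest called rises and falls with a mean of at least 5 CPM, groups that do not overlap and no predicted symbol, the 3 smallest p of each list described, all slow-fibre genes, the 10 genes with the largest spread, and the genes most and least like Myh7. Other called genes, and Ucp3 and Pdk4, are said to be named after their values were seen. Genes that overlap another on the opposite strand share reads that this kit cannot separate, which among named genes concerns Ddit3, Dll4, Notch3, Pdpr, AC113003.1, Esrra, Ubr1, Nmrk2, Myh7 and the Col4a1 and Col4a2 pair. Promoter windows from RefSeq were found for 84 of 102 named genes.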

Additional observations from a re-analysis of the deposited data

Results flagged for a closer look

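Single libraries lay far from the other 3 of their group, by a gap to the nearest above 0.829 of the group's range, in 17 gene and group pairs. Chance alone gives about 1 in 20 such groups. Both groups of many named genes were looked at, so nothing is read from the count itself. In 28-day library 2 this held for Scd1 at 80.6, Cfd at 20.6, Plin1 at 7.48, Cd163 at 3.87, Trp53i11 at 7.39 and Tbx2 at 5.54 CPM. In 28-day library 3 this held for Col4a2 at 172 and Hspg2 at 273 CPM. In 28-day library 4 this held for Atp2a2 at 193, Actn2 at 711, Gimap8 at 5.75 and Decr1 at 125 CPM. In 7-day library 1 this held for Pcdh1 at 11.4 CPM. In 7-day library 2 this held for Hes1 at 6.05, Slc25a23 at 14.2 and Clk4 at 59.8 CPM. In 7-day library 3 this held for Dll4 at 9.56 CPM.

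The day difference of sham departed from that of injured muscle (edgeR, adjusted p under 0.05) for the following named genes, as 28.4% of all genes did against SCI boldine and 23.9% against SCI vehicle. Against SCI boldine, the log2 difference, sham minus injured, was positive at Myh7 4.70, Trp53i11 2.18, Aplnr 1.63, Bcl6b 1.34, Hes1 1.17, Ddit3 0.63, Fscn1 0.62 and Fbxo21 0.54. It was negative at Esrra -0.43, Ubr1 -0.50, Acaca -0.52, Huwe1 -0.59, Filip1 -0.60, Vegfa -0.66, Ogt -0.72, Dennd4c -0.81, Usp9x -0.86, Dmd -0.90, Fam173b -0.91, Fam120c -1.09, Ankhd1 -1.11, Kat6a -1.17, C4b -1.41, Casq2 -1.67, Hmgb1-ps8 -1.84, Pdpr -2.05, Acvr2b -2.57, Hipk2 -3.11 and A630019I02Rik -7.28. Against SCI vehicle, the log2 difference, sham minus injured, was positive at Myh7 4.86, Trp53i11 1.74, Aplnr 0.95, Hes1 0.74 and Fbxo21 0.47. It was negative at Ogt -0.38, Esrra -0.45, Dmd -0.50, Usp9x -0.57, Kat6a -0.72, Vegfa -0.82, Fam120c -0.88, Pdpr -1.32, C4b -1.46, Casq2 -1.57, Acvr2b -1.84 and A630019I02Rik -5.69. Every 28-day sham library is in the set of 8 and no SCI boldine library is. Departures from SCI boldine therefore also carry the division between library sets, and those from SCI vehicle carry it in part. With the set term, 1661 genes departed from SCI boldine and 3133 from SCI vehicle. All listed genes but Myh7 and Casq2 were called by the sham part of this difference, so their departures are no independent evidence of it.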

How the results depend on the processing

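The count of genes called between days, 283, was 135 with library totals, 481 with DESeq2, 442 with voom, 0 with the set term, 437 in the sham libraries alone with the slow-fibre covariate and 86 with length and GC offsets, and 80 to 273 when 1 sham library was left out. It stayed within 1.5 times at 205 without the filter and 396 in the sham libraries alone. The count of listed genes called, 16, was 8 with library totals, 33 with voom, 0 with the set term, 28 in the sham libraries alone, 29 with the replicate block added, 35 with the covariate, and 2 to 12 when 1 library was left out. Genes whose day difference departed from SCI boldine, 4242, numbered 7505 with library totals and 1661 with the set term, and from SCI vehicle, 3579, numbered 6827 with library totals. When 1 sham library was left out they numbered 3795 to 4040 and 3141 to 3331. The slow-fibre level difference, 0.38, ran from -0.14 without 7-day library 2 to 0.68 without 28-day library 4. With the set term 6 of the 46 called genes named turned positive: Hipk2 at 0.77, A630019I02Rik at 0.99, Acvr2b at 0.26, AC113003.1 at 0.076, Pdpr at 0.12 and Kat6a at 0.15. The cause of these changes was not tested. Over all genes the deviations of same-numbered samples were hardly correlated (0.09, 0.00, -0.01 and -0.06), and whether equal numbers share anything was not tested. With a replicate block 343 genes were called in the sham libraries alone, 4194 against SCI boldine and 3552 against SCI vehicle. Among lists with 0 calls the block gave 2 calls each in the glucocorticoid (lower) and ribosomal protein (higher) lists and 1 each in the long non-coding RNA (lower) and hemichannel (higher) lists. With 4 libraries a group and 9980885 to 12864837 counts each, genes near the floor of 3 counts (0.263 to 0.342 CPM in sham) were not detectable.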

Other observations

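A set of 3 genes with a large spread inside both groups took the same order of libraries on both days. Arrdc2, an arrestin-domain gene, had 6.64, 103, 16.0 and 52.9 CPM in 28-day sham, against 13.3, 139, 42.1 and 101 CPM in 7-day sham. Gadd45g, a growth arrest gene, had 15.7, 99.3, 41.5 and 76.8 CPM in 28-day sham, against 17.4, 129, 48.7 and 79.0 CPM in 7-day sham. Nmrk2, the muscle kinase that makes NAD from nicotinamide riboside, had 168, 40.6, 283 and 265 CPM in 28-day sham, against 195, 36.7, 289 and 239 CPM in 7-day sham. On both days library 1 was the lowest and library 2 the highest for Arrdc2 and Gadd45g, and library 2 was the lowest for Nmrk2. In injured muscle Nmrk2 ran from 61.5 to 120.2 CPM in SCI boldine and from 40.5 to 97.2 CPM in SCI vehicle at 28 days, and from 26.3 to 64.3 CPM and from 27.2 to 61.1 CPM at 7 days, so that library 2 of each sham group lay within the range of SCI vehicle on the same day. The summed level of the 16 glucocorticoid response genes was 775, 1284, 858 and 1055 CPM in 28-day sham, against 954, 1505, 1045 and 1265 CPM in 7-day sham, again lowest in library 1 and highest in library 2 on both days. Over all genes same-numbered samples were hardly correlated, these genes were picked after their values were seen, and no test was made.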
